A study of Homo sapiens with 4 samples.

Results

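The Notch pathway genes examined here are 34 genes listed by name, among 20033 protein-coding genes of the RefSeq GRCh38 table, and all 34 were found in that table. They comprise 4 receptors, 5 ligands, 3 Fringe glycosyltransferases, 3 proteases, 4 nuclear complex genes, 2 NUMB genes, 5 Deltex ubiquitin ligases, 7 HES and HEY effectors and the feedback inhibitor NRARP. For each gene, the p63 ChIP-seq peaks with a summit inside the gene span or within 50 kb of it were collected. The data come from HSC-5, a cell line derived from a human squamous cell carcinoma of the skin, with no treatment or genotype contrast. Chromatin was fixed with 1% formaldehyde for 12 min and precipitated with a p63 antibody (clone D9L7L), giving 2 IP and 2 input libraries. Both IP peak lists were used, and input files were not used here. Peak lists hold no expression values, so the identity of the cells could not be checked against marker genes.

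p63 is the p53 family transcription factor that maintains basal keratinocytes. In Notch signalling, Delta and Jagged ligands on one cell engage Notch receptors on its neighbour, ADAM proteases and the presenilin protease of gamma-secretase cut the receptor, and the freed intracellular domain joins RBPJ and a Mastermind co-activator (MAML) on DNA to switch on HES and HEY repressor genes. Notch promotes differentiation in the epidermis, where it and p63 are known to restrain each other. Deltex proteins are ubiquitin ligases, named after the Drosophila protein that acts on the Notch receptor in endosomes.

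Replicate 1 kept 12687447 IP tags (sequenced fragments' ends, 1 per position) and held 4077 peaks, of which 3994 lay on chromosomes 1 to 22, X and Y. Replicate 2 kept 868393 tags, 6.84% of that depth, and held 2934 peaks. Filtering had removed 42.7% of the IP tags of replicate 1 and 78.8% of those of replicate 2. Replicate 1 was read as GRCh38. Replicate 2 is numbered on another build and was not placed on genes. Instead, its peaks were paired with those of replicate 1 by recurring spacing, which gave 210 pairs, 5.26% of the replicate 1 peaks on chromosomes. Whether the replicates were separate cultures is not given in the labels, so their differences may be technical.

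The promoters of HES1, HES4, DTX2 and LFNG are shown because each of these genes had a p63 peak within 50 kb and carries the RBPJ core letters TGGGAA, read on both strands, in the RefSeq promoter window of 250 bases before to 50 bases after the transcription start. DTX4 is shown because its p63 peak lay nearest to a start. Capitals mark the RBPJ core, and each sequence is GRCh38.p14, 5′ to 3′ on the strand of the gene (HES1, chr3:194135898-194136197, plus; HES4, chr1:1000048-1000347, minus; DTX2, chr7:76461459-76461758, plus; LFNG, chr7:2512279-2512578, plus; DTX4, chr11:59171180-59171479, plus).
HES1: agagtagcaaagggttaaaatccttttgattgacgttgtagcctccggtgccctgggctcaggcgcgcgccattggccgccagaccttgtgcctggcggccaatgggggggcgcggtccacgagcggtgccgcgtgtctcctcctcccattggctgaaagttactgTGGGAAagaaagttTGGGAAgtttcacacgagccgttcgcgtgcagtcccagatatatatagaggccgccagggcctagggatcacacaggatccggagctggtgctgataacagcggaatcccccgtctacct
HES4: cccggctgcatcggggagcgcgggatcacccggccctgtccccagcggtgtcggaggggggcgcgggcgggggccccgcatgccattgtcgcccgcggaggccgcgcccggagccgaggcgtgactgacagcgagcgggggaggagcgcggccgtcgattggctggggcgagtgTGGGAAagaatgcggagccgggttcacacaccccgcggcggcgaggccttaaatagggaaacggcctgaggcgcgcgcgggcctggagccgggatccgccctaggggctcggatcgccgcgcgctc
DTX2: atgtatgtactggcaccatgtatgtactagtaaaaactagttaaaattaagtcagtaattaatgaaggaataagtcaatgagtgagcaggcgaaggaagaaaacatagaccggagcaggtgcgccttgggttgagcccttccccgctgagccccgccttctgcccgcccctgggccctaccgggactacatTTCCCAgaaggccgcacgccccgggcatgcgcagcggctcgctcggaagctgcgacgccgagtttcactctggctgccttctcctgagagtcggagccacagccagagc
LFNG: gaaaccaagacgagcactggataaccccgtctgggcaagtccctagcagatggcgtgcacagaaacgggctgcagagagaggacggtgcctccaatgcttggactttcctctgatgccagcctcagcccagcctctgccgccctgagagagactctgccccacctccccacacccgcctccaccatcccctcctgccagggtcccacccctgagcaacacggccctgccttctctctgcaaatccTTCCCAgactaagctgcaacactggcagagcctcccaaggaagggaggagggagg
DTX4: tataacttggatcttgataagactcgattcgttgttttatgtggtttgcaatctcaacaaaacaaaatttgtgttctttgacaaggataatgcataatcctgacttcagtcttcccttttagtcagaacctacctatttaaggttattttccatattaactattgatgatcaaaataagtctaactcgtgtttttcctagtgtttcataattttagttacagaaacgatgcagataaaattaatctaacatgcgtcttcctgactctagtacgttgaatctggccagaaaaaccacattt

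HES1 held 2 cores, with first bases 84 and 70 bases before its start, and HES4 held 1, at 76 bases before. The DTX2 core began 59 bases before the start and the LFNG core 5 bases before. DTX4 held none. RefSeq promoters were found for 28 of the 34 genes, all but DLL1, DLL3, MFNG, DTX1, DTX3 and HEY1. The core stood in 7 of these 28 (25%), the others being HES5, HEY2 and HEYL, and in 22.7% of 15842 protein-coding promoters of the same length. The p53 family decamer consensus, on both strands, stood in 2 of the 28 (LFNG and NUMBL) and in 5.93% of all promoters. Only 1 start per gene was used, and any other starts were not examined. None of the p63 summits near these genes lay inside such a promoter window. The nearest, at DTX4, was 1.87 kb from the start.

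Of the 34 genes, 9 (26.5%) had at least 1 replicate 1 peak in the span or within 50 kb. These were the receptor NOTCH2, the ligand JAG2, the Fringe genes LFNG and MFNG, the co-activator MAML2, the Deltex ligases DTX2 and DTX4, and the effectors HES1 and HES4. Across all protein-coding genes the share was 19.8% by the same rule, and no test of the difference was made. DTX2 was on the list with its peak already known, and 8 of the other 33 genes had a peak. Longer genes held peaks more often. Among genes of 300 kb or longer 37.1% had one, as did 1 of 3 Notch pathway genes of that length (MAML2, but not MAML3 or RBPJ). Among genes under 50 kb 16.7% had one, as did 7 of 26 of these.

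**Figure D1:**
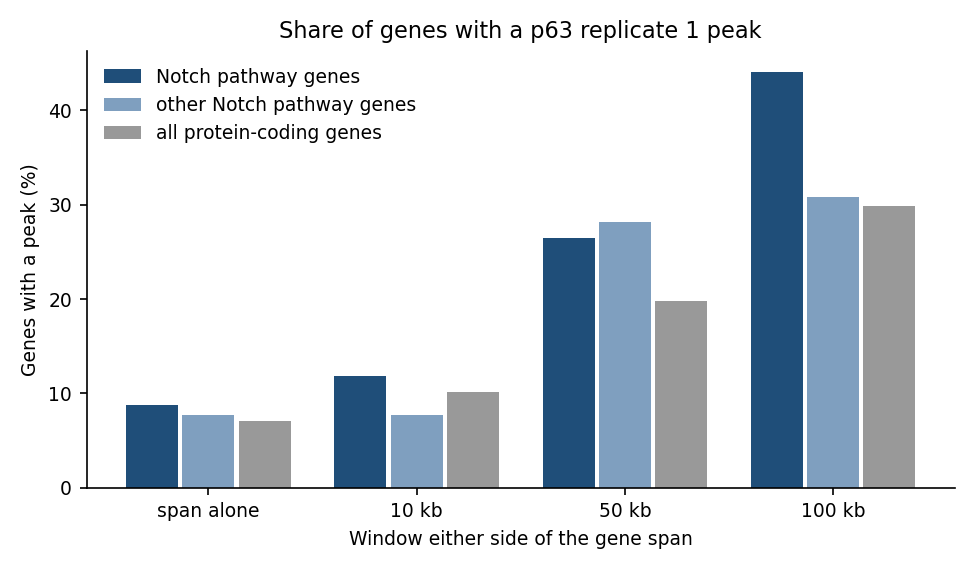
Bars give the percentage of genes with at least 1 replicate 1 summit (y axis) in the gene span or in a window of 10, 50 or 100 kb either side of it (x axis), for the 34 Notch pathway genes, 39 other Notch pathway genes and all 20033 protein-coding genes. The 34 genes lie within a few points of all genes for the span and 10 kb, and at 26.5% against 19.8% for 50 kb and 44.1% against 29.9% for 100 kb.

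The size of the difference from all genes varied with the window. With the gene span alone, 3 of 34 (8.82%) had a peak against 7.1% of all genes, and with 10 kb either side 4 (11.8%) against 10.2%. With 100 kb either side, 15 (44.1%) had one against 29.9%. Within 50 kb of the transcription start it was 7 of 28 against 14.2%. Giving each peak only to its nearest protein-coding gene left 6 against 10.5%. With a score of 100 or more, 2 genes (MAML2 and DTX2) had a peak against 4.61%, with a fold of 10 or more 9 against 18.6%, with 10 or more tags 6 against 12.1%, and with any base of the peak in the window 9 against 19.8%.

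The 9 genes held 13 peaks. Their median was 10 tags (range 8 to 25), the median of all replicate 1 peaks on chromosomes. The median width was 241 bp against 245 bp, and the median of the authors' fold enrichment, the ratio of IP to scaled local control, was 14.8 against 13.4. The lowest tag count in the whole list was also 8, so 7 of the 13 peaks, with 10 tags or fewer, stood at or near the detection limit. So did much of the whole list, where a peak of 10 tags ranked 1845 of 3994 by tags. The Poisson 95% intervals given with tags cover counting error only. Inside gene spans lay 6 of the peaks (4 in MAML2, 1 each in DTX2 and DTX4), with a median of 13.5 tags, and outside lay 7, with a median of 10. All 3 peaks with a score of 100 or more were inside, in MAML2 and DTX2 alone. They were 23.1% of the 13, against 15.5% of all replicate 1 peaks on chromosomes. The share of all peaks that lay inside gene spans is not given here.

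**Figure D2:**
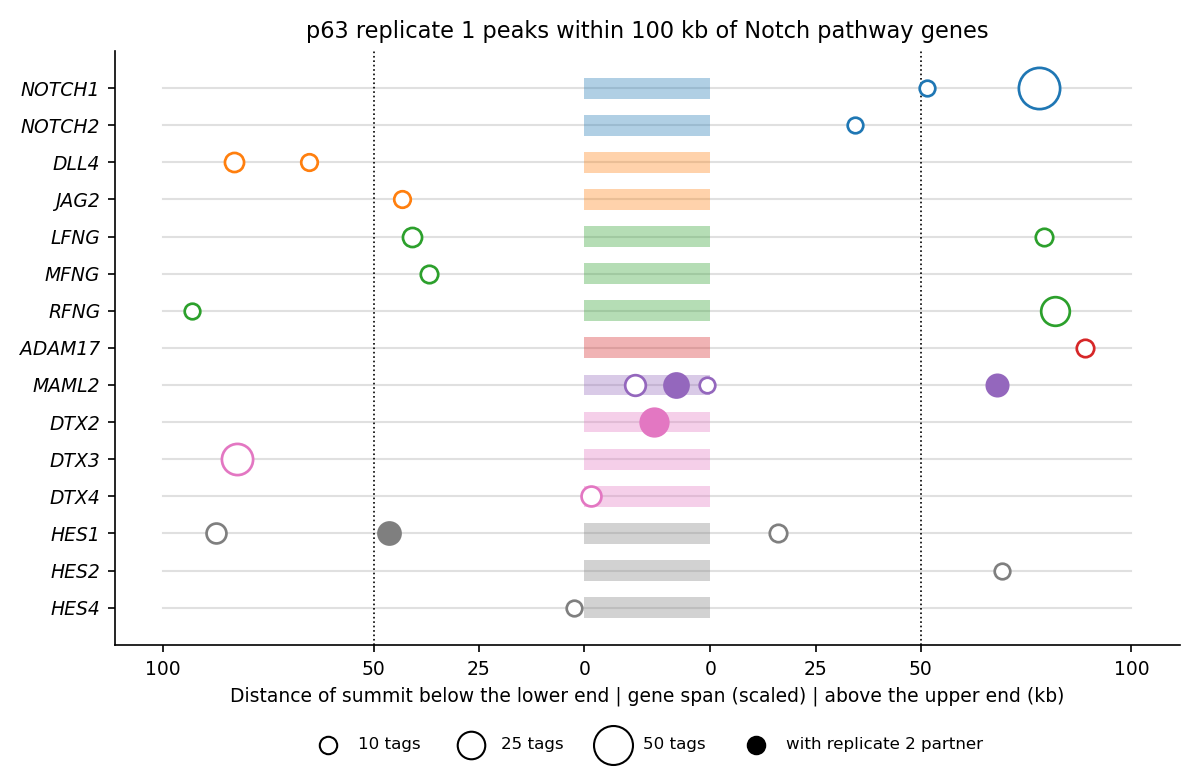
Each row is 1 of the 15 genes with a replicate 1 summit within 100 kb; the coloured band is the gene span drawn at a fixed width, and the x axis gives kb below its lower or above its upper end in chromosome order. Circle area is proportional to tags, filled circles have a replicate 2 partner, and dotted lines mark 50 kb. The circles of the 2 MAML2 peaks whose edges lie 29 bp apart cover each other. Peaks inside spans are seen in MAML2, DTX2 and DTX4 alone.

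Among the Deltex ligases, DTX2 and DTX4 had a peak and DTX1, DTX3 and DTX3L had none within 50 kb. The DTX2 peak (chr7:76485831-76486229, 399 bp) held 25 tags in replicate 1 (95% interval 16.2 to 36.9), and its replicate 2 partner held 12 tags (6.20 to 21.0). It lay inside the gene (gene 113878, chr7:76461709-76505991), 24.3 kb downstream of the start, with a fold of 35.61, rank 88 of 3994. It was the peak with the most tags and the highest fold of the 13. A peak of like size lay in DTX2P1, a pseudogene copy of DTX2 on the same chromosome, which was looked at after the DTX2 peak was seen. The DTX2P1 peak (chr7:76983965-76984238) held 24 tags (15.4 to 35.7) and 10 in its replicate 2 partner, with a fold of 30.86. Measured from the lower end of each span, the summits lay 24.309 kb into DTX2 and 24.389 kb into DTX2P1, in spans of 44.3 and 44.6 kb. How tags that align to both copies were assigned is not given in the sources used here. Whether the tags come from DTX2, DTX2P1 or both therefore cannot be told apart, and the DTX2P1 peak is also 1 of the 2 pairs that support the DTX2 pairing.

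The DTX4 peak (chr11:59173152-59173463) held 13 tags (6.92 to 22.2) with a fold of 11.84 and no replicate 2 partner. It lay 1.87 kb downstream of the DTX4 start (gene 23220, chr11:59171430-59208588), in a stretch also covered by LOC124902601. It was the p63 summit closest to the start of any of the 28 genes with a RefSeq start. DTX3 had its nearest peak 82.5 kb away, inside MBD6, with 32 tags (21.9 to 45.2) and a fold of 44.27. The counting intervals of the DTX3 and DTX2 peaks overlap. DTX1 and DTX3L, which partners PARP9 in DNA damage signalling, had their nearest peaks 119.6 and 158.1 kb away.

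Of the nuclear complex, MAML2 was the 1 gene with peaks. The MAML genes encode Mastermind co-activators, and RBPJ is the DNA-binding factor of the pathway. MAML2 (gene 84441, chr11:95976598-96343195, minus strand, 366.6 kb) held 4 peaks, all inside, with 8, 9, 19 and 14 tags at 10.7, 99.9, 99.7 and 220.4 kb downstream of its start. By a cut at 4, which is the count of MAML2 itself, 14 protein-coding genes (0.0699%) held as many peaks or more in their spans. Of these, 9 were among the 773 genes of 300 kb or longer (1.16% of that length). Peaks close together were counted separately, and shares at lower cuts are not given here. The strongest MAML2 peak (chr11:96243347-96243590) held 19 tags (11.4 to 29.7) with a fold of 23.01, and its replicate 2 partner held 9 (4.12 to 17.1). The peak of 9 tags lay 29 bp from it, so whether these are separate sites cannot be told from the list. The peak of 14 tags (7.65 to 23.5; chr11:96122717-96122920) had a fold of 21.39, and the peak of 8 tags (3.45 to 15.8; chr11:96332363-96332573) a fold of 10.98. A further peak, 68.0 kb upstream of the MAML2 start and nearer to JRKL, held 15 tags with a replicate 2 partner of 7. MAML3, longer than MAML2 at 437.4 kb, had none nearer than 278.2 kb. MAML1 and RBPJ had none within 1 Mb, at 1057 and 3606 kb.

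Among HES and HEY genes, the repressors that carry out the Notch response, HES1 and HES4 had peaks within 50 kb and HES2, HES5, HEY1, HEY2 and HEYL did not. HES1 (gene 3280, chr3:194136148-194138732), the canonical Notch target, lay between 2 peaks. The upstream peak (chr3:194089729-194089936), 46.3 kb before the HES1 start and inside LOC102724877, held 16 tags (9.15 to 26.0) with a fold of 14.75 and a replicate 2 partner of 5 tags (1.62 to 11.7). The downstream peak (chr3:194154796-194155049), 18.7 kb past the HES1 start, held 10 tags (4.80 to 18.4) with a fold of 11.99 and had no partner. HES4 (gene 57801, chr1:998964-1000097, minus strand) had 1 peak of 8 tags (3.45 to 15.8; chr1:996427-996660) with a fold of 12.98, 2.38 kb beyond its 3′ end and 3.51 kb from its start. The 2 effectors with the closest peaks both carry the RBPJ core shown above, as do HES5, HEY2 and HEYL, which had no peak within 100 kb. The nearest peaks of HES2, HEYL, HES5, HEY2 and HEY1 lay 69.3, 211.2, 654.0, 697.5 and 1290 kb away.

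**Figure D3:**
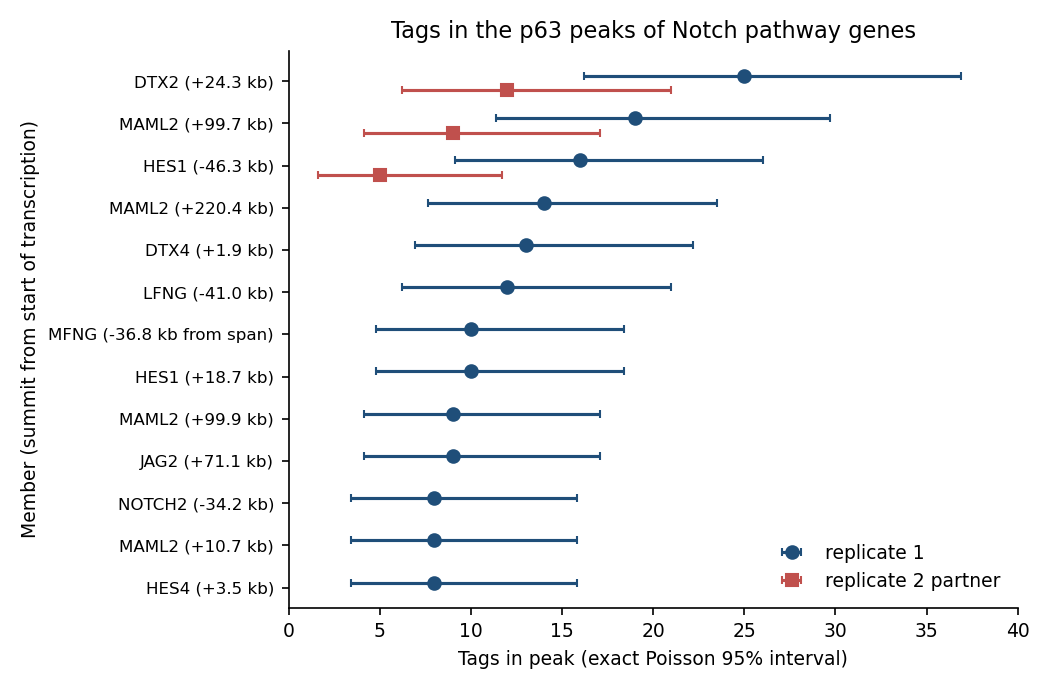
Points give the tags in each of the 13 replicate 1 peaks (circles) and in the 3 replicate 2 partners (squares), with exact Poisson 95% intervals; labels give kb from the transcription start, negative upstream (from the gene span for MFNG). DTX2 has the most tags in both replicates, 25 and 12, and the intervals of the replicate 1 peaks from 8 to 19 tags overlap one another.

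Among receptors, NOTCH2 alone had a peak within 50 kb. The NOTCH2 peak (chr1:120103749-120103989) held 8 tags (3.45 to 15.8), the lowest count in the list, with a fold of 15.27, and lay 34.2 kb upstream of the start of NOTCH2 (gene 4853, chr1:119911553-120069662, minus strand). The NOTCH2NL genes on the same chromosome are partial copies of NOTCH2. By the same rule 3 of them had a peak within 50 kb, against 19.8% of all protein-coding genes. They are too few for a comparison of shares. The nearest peaks lay 3.20 kb from NOTCH2NLB with 10 tags, 18.6 kb from NOTCH2NLA with 8 and 38.9 kb from NOTCH2NLC with 15. All lay outside the spans. NOTCH2NLR had none nearer than 486.9 kb, and NOTCH2P1, a further copy, none nearer than 217.0 kb. NOTCH1, the main Notch receptor of keratinocytes, lay just outside the window, with a peak of 8 tags (3.45 to 15.8) 51.4 kb upstream of its start. The farthest gene inside the window was JAG2, at 43.3 kb. NOTCH3 and NOTCH4 were 152.9 and 1333 kb from a peak.

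The surroundings of NOTCH1 (gene 4851, chr9:136494433-136546048) were examined further after these values were seen. Within 500 kb of NOTCH1 lay 8 peaks, and within 1 Mb 10, where the median protein-coding gene had 3 and 2.19% had 10 or more. HES4 also had 10 within 1 Mb, so that 2 of the 34 genes (5.88%) had 10 or more. A peak of 56 tags (42.3 to 72.7) with a fold of 32.16 lay 78.0 kb upstream of NOTCH1 (chr9:136623903-136624280) and 34.8 kb from EGFL7. No replicate 2 partner was found for it. The peak with the highest fold of all replicate 1 peaks on chromosomes, 99.67, lay 384.6 kb beyond the 3′ end of NOTCH1 and 4.75 kb from TMEM250. This peak near TMEM250 held 64 tags (49.3 to 81.7) and had a replicate 2 partner of 16. No peak of these files is tied to NOTCH1 by more than distance.

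Among ligands, JAG2 had the 1 peak within 50 kb. It held 9 tags (4.12 to 17.1; chr14:105097576-105097779) with a fold of 14.66, lay 43.3 kb beyond the 3′ end of JAG2 and was nearer to GPR132, at 32.2 kb. DLL4 had 2 peaks within 100 kb, of 9 and 12 tags at 65.3 and 83.3 kb, both nearer to SPINT1. DLL3, JAG1 and DLL1 had none within 500 kb, at 705.6, 1233 and 6647 kb, so that the ligands had the largest median distance of the classes with more than 1 gene, 705.6 kb.

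The Fringe genes encode Golgi glycosyltransferases that extend sugars on Notch and so change which ligand it answers to. LFNG and MFNG had a peak within 50 kb and RFNG within 100 kb. The LFNG peak (chr7:2471410-2471645) held 12 tags (6.20 to 21.0) with a fold of 20.76, 41.0 kb upstream of its start and 3.17 kb from GRIFIN. The MFNG peak (chr22:37432102-37432402) held 10 tags (4.80 to 18.4) with a fold of 15.57, 36.8 kb outside MFNG and 4.75 kb from ELFN2. RFNG had a peak of 27 tags with a fold of 31.12, 82.0 kb away inside CCDC57. All 3 Fringe peaks named were thus nearer to another gene.

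The sheddases ADAM10 and ADAM17, the presenilin PSEN2 and the endocytic Notch inhibitors NUMB and NUMBL had no peak within 50 kb. ADAM17 had the closest, of 10 tags at 89.0 kb and nearer to YWHAQ, and ADAM10 and PSEN2 followed at 177.9 and 468.5 kb. NUMBL and NUMB lay 334.6 and 540.7 kb from a peak. NRARP, which is induced by Notch and destabilises its intracellular domain, lay 142.9 kb from one.

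**Figure D4:**
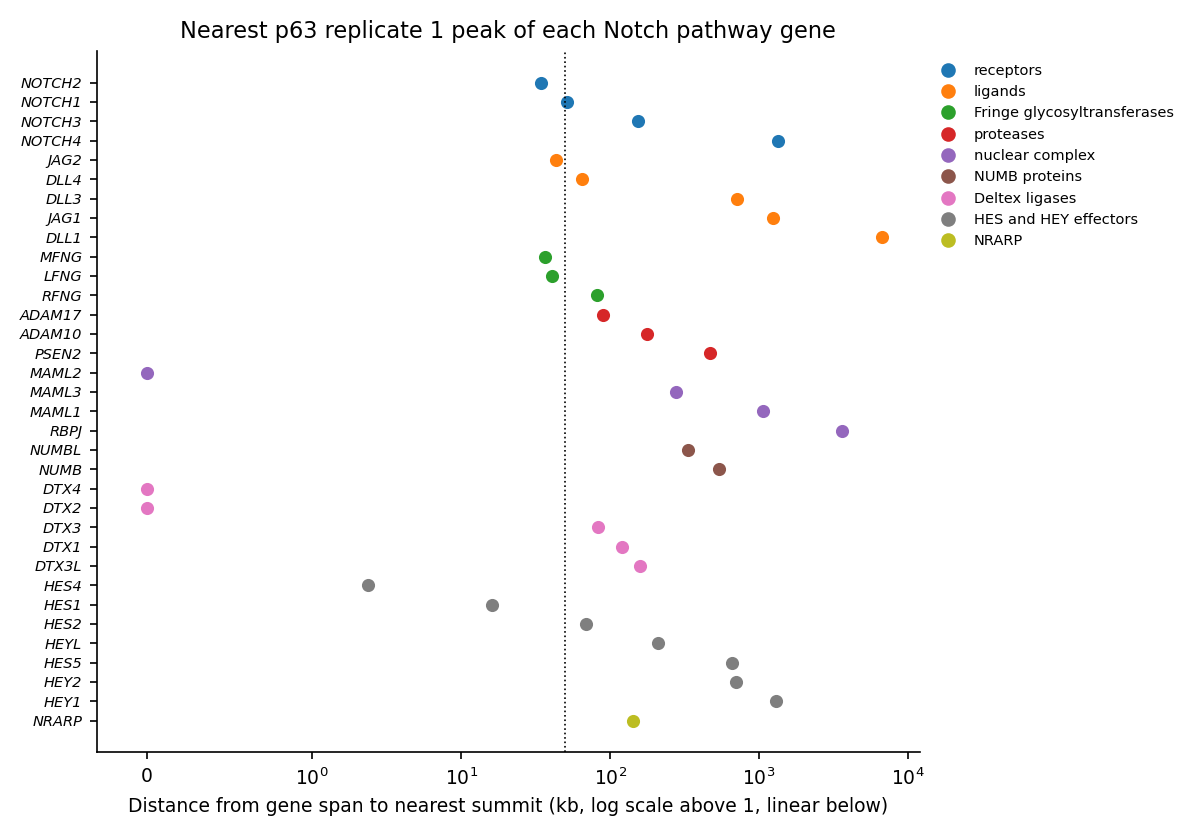
Points give the distance in kb from each of the 34 gene spans to the nearest replicate 1 summit (x axis, log scale above 1 kb and linear below), coloured by class, with a dotted line at 50 kb. MAML2, DTX2 and DTX4 lie at 0, and DLL1, RBPJ, NOTCH4, HEY1, JAG1 and MAML1 lie beyond 1 Mb.

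Over all 34 genes the median distance to the nearest peak was 147.9 kb (quartiles 45.4 and 625.7) against 236.5 kb (75.4 and 627.4) for all protein-coding genes. The genes without a peak within 50 kb numbered 25, of which 6 had one within 100 kb, 13 between 100 kb and 1 Mb, and 6 (17.6%) none within 1 Mb, against 15.7% of all genes. By class, the median distance was 41.0 kb for the Fringe genes, 82.5 kb for the Deltex ligases, 102.2 kb for the receptors, 177.9 kb for the proteases, 211.2 kb for the HES and HEY effectors, 437.7 kb for the NUMB genes and 667.4 kb for the nuclear complex. With 1 to 7 genes a class and distances that ranged widely within classes, this order is a description.

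Of the 13 peaks, 9 had the Notch pathway gene as their nearest protein-coding gene or one of them, and 4 were nearer to another gene, at HES1 (upstream), JAG2, LFNG and MFNG. Replicate 2 partners were found for 3 of the 13 (23.1%), at DTX2, MAML2 and HES1, against 5.26% of all replicate 1 peaks on chromosomes (13.5% where 1 supporting pair is enough), and 3 of 34 genes had a partnered peak within 50 kb against 1.64% of all genes. DTX2 was on the list with its peak already known, and its pairing rests in part on the DTX2P1 peak. No share without DTX2 is given here. The 3 partnered peaks were also the 3 with the most tags of the 13. The share with a partner among all peaks of like tags is not given here either. At the same share of kept tags, the DTX2 peak would give 1.71 tags in replicate 2, the MAML2 peak 1.3 and the HES1 peak 1.10, all below the lowest count of 4 in that list. The partners held 12, 9 and 5 tags, each above its scaled value. Whether the shares of tags differ between the libraries was not tested. Replicate 2 peaks had to reach 4 tags to be listed, so these partners are not an unselected comparison. What a missing partner means at the other 10 peaks was not tested. Each pairing rested on few supporting pairs, 2 at DTX2, 3 at MAML2 and 4 at HES1.

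**Figure D5:**
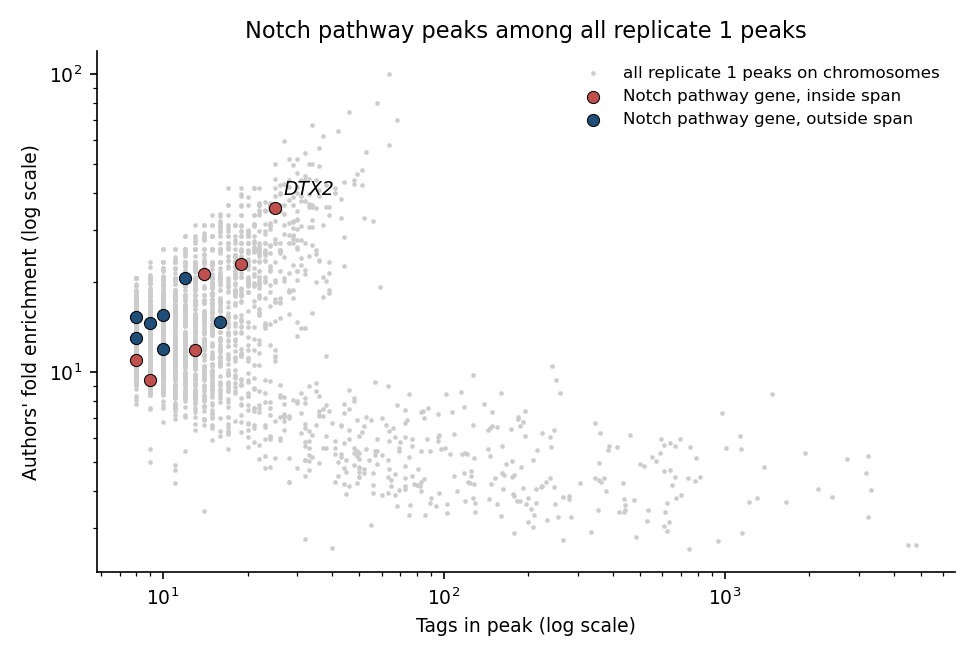
The authors' fold enrichment (y axis, log scale) is plotted against tags (x axis, log scale) for all 3994 replicate 1 peaks on chromosomes in grey, with the 13 Notch pathway peaks inside gene spans in red and outside in blue. The 13 lie at 8 to 25 tags and folds of 9.45 to 35.61, with DTX2 at the upper right, and none lies among the peaks of many tags and low fold.

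Other Notch pathway genes were taken from a list of 40, of which 39 were found in the table (CIR1 was not analysed here). Of these 39, 11 (28.2%) had a peak within 50 kb, again against 19.8% of all genes, and 3 within 10 kb, against 10.2%. The 3 each held a peak inside the gene. CTBP2, a co-repressor, held a peak of 27 tags with a fold of 42.94. FBXW7, the ubiquitin ligase subunit that marks the Notch intracellular domain for degradation, held a peak of 16 tags with a fold of 12.72. NCOR1, a co-repressor, held a peak of 10 tags with a fold of 11.91 and had 4 peaks within 50 kb. None of the 39 had a partnered peak within 50 kb, against 1.64% of all genes, a share too low for so few genes to show a difference.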

How the data were processed

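p63 ChIP-seq of HSC-5 cells was represented by 2 lists of peaks, 1 per IP library. Per the file headers, the authors called each with MACS 1.4.2 against 1 control, at a p cut-off of 1e-05, keeping 1 tag per position and scaling the larger library to the smaller. FastQC, Trimmomatic and Bowtie preceded this, per the submitters' processing notes, which name hg19. The deposited tag counts are whole tags per peak, not normalised. The authors' score is the p-value on a minus log10 scale, times 10, the deposited fold is a ratio of IP to scaled local control, and the authors' false discovery rate is given as a percent (at most 0.18 in replicate 1), per the file headers.

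Replicate 1 held 83 peaks on 45 contigs named as in GRCh38, and the authors' notes place peaks at the promoters of TRIM32 and ELK3, which lay 0.054 and 0.495 kb from their GRCh38 starts. It was therefore read as GRCh38, and no coordinate was converted. The noted EHD2 promoter lay 12.7 kb from its start. Gene spans came from RefSeq GRCh38.p14, without exons, so that exons and introns were not told apart. Starts and strands came from its promoter table, with 1 start per gene.

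Replicate 2 peaks were paired by spacing. A pair was kept where 2 or more further pairs, 2 kb to 10 Mb away, had a summit offset within 100 bp of its own, for widths under 1 kb and offsets up to 5 Mb. Windows, thresholds and pairing were varied. With 1 list on genes and 1 condition there was no test, and values are descriptions. Genes and lists were chosen with earlier results of these data known. All 34 genes are accounted for. Of the other pathway genes, those with a peak within 10 kb are named, and of neighbouring genes those nearer to a peak. Python 3.11.15, pandas 2.3.3, NumPy 2.4.6 and SciPy 1.17.1 were used.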

Additional observations from a re-analysis of the deposited data

How the results depend on the processing

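The number of genes with a peak follows the window and the threshold, as their construction implies. Of the 34 genes, 9 had a peak in the main rule, with 13 peaks, 1 receptor, 1 ligand, 2 Fringe genes, 0 proteases, 2 Deltex ligases, 2 HES or HEY effectors and 11 other Notch pathway genes. With the gene span alone there were 3 genes with 6 peaks, 0 receptors, 0 ligands, 0 Fringe genes, 0 effectors and 3 other pathway genes. With 10 kb there were 4 genes with 7 peaks, 0 receptors, 0 ligands, 0 Fringe genes, 1 effector and 3 other pathway genes. With 100 kb there were 15 genes with 25 peaks, 2 receptors, 2 ligands and 1 protease. With 50 kb around the start, only the 28 genes and 34 other pathway genes with a RefSeq start could be counted. They gave 8 peaks near the 28, 0 ligands, 1 Fringe gene and 7 other pathway genes. MFNG, DLL1 and DLL3 were among those without a start. At a score of 100 or more there were 2 genes with 3 peaks, 0 receptors, 0 ligands, 0 Fringe genes, 1 Deltex ligase, 0 effectors and 5 other pathway genes. With 10 or more tags there were 8 peaks, 0 receptors, 0 ligands and 1 effector. By nearest gene there were 0 ligands, 0 Fringe genes and 6 other pathway genes. With a replicate 2 partner there were 3 genes with 3 peaks, 0 receptors, 0 ligands, 0 Fringe genes, 1 Deltex ligase, 1 effector and 0 other pathway genes. Every other count under these settings, and all counts at a fold of 10 or more and with any base of the peak, stayed within 1.5 times the main count.

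The same 3 partners were found at a tolerance of 50 bp and with blocks of 5 Mb, where all pairs fell from 210 to 160 (4.01% of replicate 1 peaks on chromosomes) and 147 (3.68%). With 1 supporting pair, a looser rule, no further partner of the 13 peaks was added while all pairs rose to 541 (13.5%), so the share that the 23.1% stands beside moves with the setting. These settings were chosen after seeing the data. Apart from the counts of pairs and partners, the counts of genes and peaks rest on replicate 1 alone. Leaving out replicate 2 therefore could not change them. Leaving out replicate 1 was not run, because replicate 2 cannot be placed on genes. No paired analysis was possible because no result comes from a test between groups. The peaks near Notch pathway genes had a median of 10 tags, as did all replicate 1 peaks on chromosomes, close to the lowest count of 8. The effect of depth on these results was not tested.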
